A study of Homo sapiens with 12 samples.

Results

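The genes described here are the TGF-beta ligands (TGFB1, TGFB2 and TGFB3), the TGF-beta receptors (TGFBR1, TGFBR2 and TGFBR3) and the latent TGF-beta binding proteins (LTBP1, LTBP2, LTBP3 and LTBP4). They are 10 of the 57820 genes in the deposited count tables, were matched by symbol, and all 10 were among the 19200 genes tested across the 3 groups. The family was selected on LTBP1, whose mean level was seen to lie below 0.5 of the control mean in knockout and in rescue. Its values against control are therefore given as a description with no test, and the other 9 entered as relatives of LTBP1 and of its cargo.

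The 12 libraries were made from PLC/PRF/5, a human hepatoma line labelled as epithelial cells. The 4 control libraries (control 1 to 4) carry the genotype label WT, 4 libraries are titled as HKDC1 knockouts (KO) and 4 as knockouts into which HKDC1 was returned (KO_RES, or rescue). The HKDC1 product is a hexokinase domain protein, of the enzyme family that phosphorylates glucose. Knockout and rescue libraries came from 2 lines, with 2 libraries per line and group, named by line and number, so that KO 1_2 is line 1, number 2. The rescue cells thus carry the knockout of their line as well. The labels do not say how the knockout or the rescue was made, whether a line is 1 clone, whether the libraries came from separate cultures, or how much oxygen the cells had. What the p-values measure is thus the spread between these libraries, which may be technical. The titles are followed here, although the genotype label names the opposite group for 4 libraries: both knockouts numbered 2 and both rescues numbered 1.

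TGF-beta is secreted in an inactive form. Each ligand stays bound to its own propeptide, which a latent TGF-beta binding protein ties to the extracellular matrix, and integrins or proteases free the ligand from this store. The freed ligand binds TGFBR2, which recruits and phosphorylates TGFBR1, and TGFBR1 passes the signal to SMAD2 and SMAD3. TGFBR3, or betaglycan, presents ligand to TGFBR2 and matters most for TGF-beta 2. In the liver TGF-beta is known for restraining hepatocyte growth, driving fibrosis through stellate cells and, in carcinoma cells, promoting a mesenchymal change.

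Control libraries held 57333288 to 71853616 counts over genes, KO libraries 42609910 to 68040103 and rescue libraries 36075411 to 60154638. Levels are in CPM, each library's counts being divided by its TMM-adjusted total. HKDC1 mRNA was between 124 and 183 CPM over the controls, at 153 and 147 CPM for the knockouts of line 1, and at 91.2 and 49.3 CPM for those of line 2. A transcript can persist after a knockout, so this does not check line 1. The rescue reached 1237 and 1546 CPM (line 1) and 507 and 626 CPM (line 2). Controls 1 and 2 stood apart from controls 3 and 4: 7 hepatocyte markers summed to between 12711 and 13166 CPM in the first pair and to between 2463 and 2699 CPM in the second, against 1725 to 3946 CPM in the knockout and rescue libraries. The 7 fibroblast markers summed to between 4.39 and 12.3 CPM over all libraries, with COL1A2 at or under the floor of 3 counts in each. The 4 endothelial markers found summed to at most 2.02 CPM with KDR at or under the floor, and of 6 blood cell markers LYZ alone passed 1 CPM, with CD3E and HBB at or under the floor. In bulk RNA, fewer cells of a kind and less RNA per cell cannot be told apart.

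The sequences just upstream of the transcription starts of LTBP1, TGFB2 and TGFB3 are shown. These 3 genes had the largest log2 fold changes of the family in KO and in rescue. LTBP2, not shown, came close behind LTBP1 in KO (-1.16 and -1.17). The sequences are the 250 bases before the start in the RefSeq annotation of GRCh38.p14, 5′ to 3′ on the gene's strand. The counts were made on GRCh37, and no coordinate of the counts is used. Capitals mark ACGTCA, the core letters of the cyclic AMP response element, with the flanking letters where the full palindrome TGACGTCA is present, and the TATA box letters TATAAA. The window of LTBP1 is that of its most upstream start at chr2:32946703-32946952 on the plus strand. That of TGFB2 is chr1:218345086-218345335 on the plus strand. That of TGFB3 is the more downstream of its 2 annotated starts, at chr14:75981996-75982245 on the minus strand.
LTBP1: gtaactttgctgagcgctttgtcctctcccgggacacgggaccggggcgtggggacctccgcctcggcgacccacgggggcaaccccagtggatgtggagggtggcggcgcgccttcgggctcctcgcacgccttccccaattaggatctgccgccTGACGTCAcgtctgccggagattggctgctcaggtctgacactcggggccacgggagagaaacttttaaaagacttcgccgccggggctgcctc
TGFB2: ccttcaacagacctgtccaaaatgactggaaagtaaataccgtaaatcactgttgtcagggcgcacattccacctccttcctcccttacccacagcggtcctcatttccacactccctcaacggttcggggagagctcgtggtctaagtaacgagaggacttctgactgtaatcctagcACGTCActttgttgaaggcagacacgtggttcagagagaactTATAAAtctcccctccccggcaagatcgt
TGFB3: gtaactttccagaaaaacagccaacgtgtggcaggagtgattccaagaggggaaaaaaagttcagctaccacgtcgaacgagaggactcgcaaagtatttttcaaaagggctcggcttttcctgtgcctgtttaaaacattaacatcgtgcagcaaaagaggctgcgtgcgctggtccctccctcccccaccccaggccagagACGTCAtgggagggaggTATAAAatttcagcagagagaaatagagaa
In LTBP1 the palindrome begins 94 bases before the start. In TGFB2 the core begins 71 bases and TATAAA 29 bases before it, and in TGFB3 the core begins 47 bases and TATAAA 30 bases before it.

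ACGTCA was searched on both strands in the 23 annotated starts of the 10 genes and was found in 3 of them, 1 each in LTBP1, TGFB2 and TGFB3. It was present in 7.1% of the 35116 RefSeq windows of the same length. TGACGTCA, which contains ACGTCA on both strands, was present in 1.65% of them and TATAAA in 10.72%. CAGAC, the letters of the SMAD binding element searched alongside, lay in 38.0% of all windows. It lay in 3 of 3 starts of LTBP1, in 4 of 8 of TGFBR1, in 1 of 2 of LTBP4 and of TGFB3, and in the single start of TGFB2. It was absent from every start of LTBP2, LTBP3, TGFB1, TGFBR2 and TGFBR3. Some windows of TGFBR1 overlap and count the same site more than once. These letters were chosen after the sequences had been seen, the match is a description of letters, and the count data do not say which start was used. LTBP1 has 2 further annotated starts downstream, neither with ACGTCA, and the counts per gene do not separate its long and short forms. The other annotated start of TGFB3, upstream of the window shown, holds neither ACGTCA nor TATAAA.

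In control cells the receptors and LTBP1 were the most abundant of the family and TGFB3 the least. Levels between genes are compared as CPM per kb of exon, from exon lengths of GENCODE release 29. TGFBR2 stood at 50.2 ± 20.8, LTBP1 at 20.1 ± 1.4 and TGFBR1 at 13.5 ± 0.572 CPM per kb (SD, n = 4). TGFBR3, LTBP4, TGFB1 and LTBP3 followed at 8.67, 7.0, 6.93 and 5.16 CPM per kb, each overlapping its neighbour in this order. LTBP2 at 1.16 overlapped TGFB2 at 0.728, and TGFB3 was last at 0.256 CPM per kb. In KO the order differed in 2 places. LTBP1 stood at 8.93 CPM per kb, level with TGFBR3 at 8.98, and TGFB3 at 0.876 stood above both LTBP2 at 0.52 and TGFB2 at 0.12 CPM per kb.

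**Figure D1:**
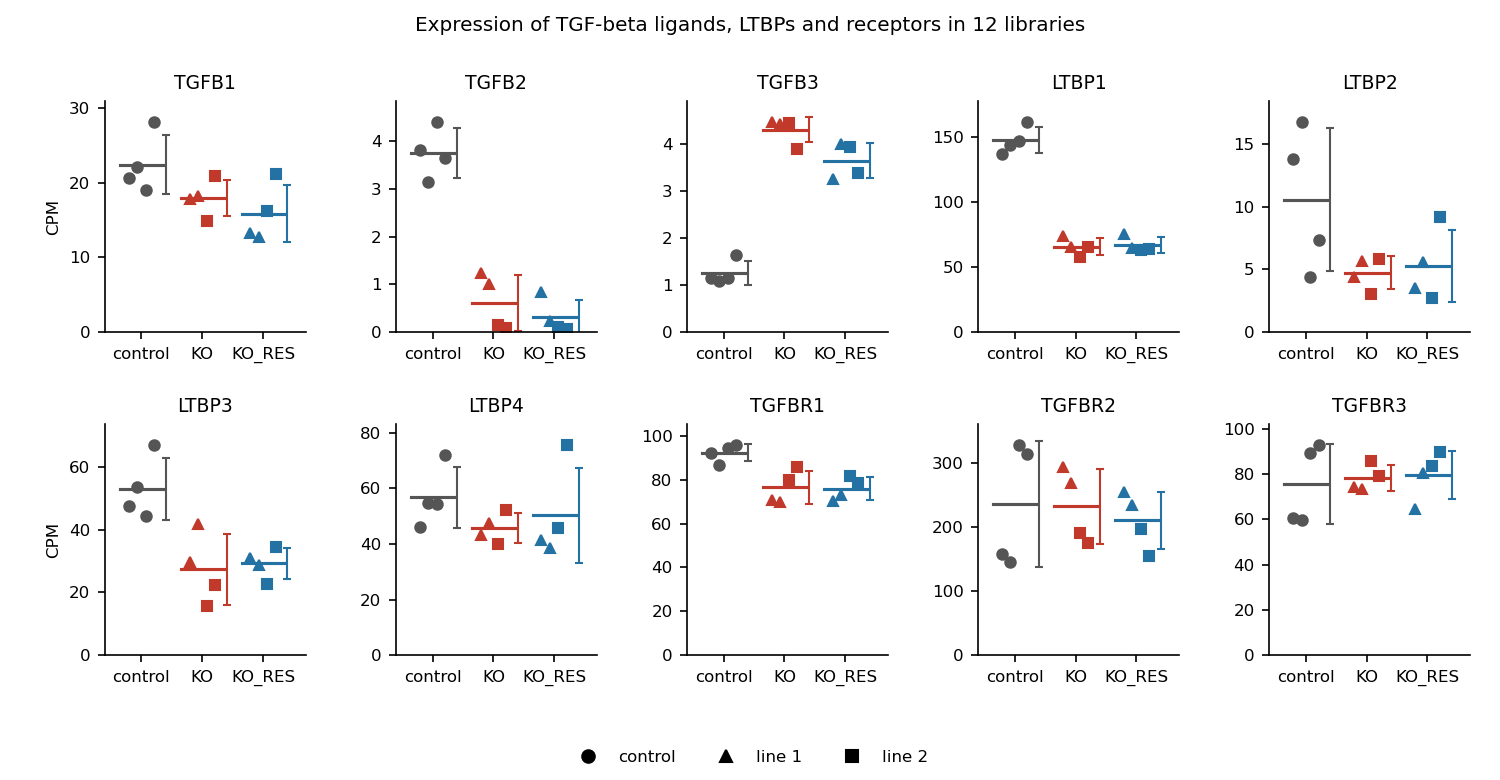
Level of each of the 10 genes in CPM (vertical axes, from 0, scaled per gene) in the 4 control, 4 KO and 4 KO_RES libraries; circles are controls, triangles line 1 and squares line 2, and bars are the mean and SD (n = 4), ending at 0 where the SD reaches below it. TGFB3 lay between 1.08 and 1.65 CPM in controls and between 3.26 and 4.46 CPM in all 8 other libraries, while TGFB2 and LTBP1 lay below every control in all 8.

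Among the ligands, TGFB3 was called higher in KO and in rescue, and TGFB2 lay below every control in all knockout and rescue libraries. TGFB2 was called lower in rescue but not in KO, and TGFB1, the most abundant, was not called in either group. TGFB3 encodes a ligand best known from palate and lung development. Controls 1 to 4 held 1.15, 1.08, 1.15 and 1.65 CPM. The knockouts held 4.46 and 4.43 CPM (line 1) and 4.44 and 3.90 CPM (line 2). The rescues held 3.26 and 3.99 CPM (line 1) and 3.93 and 3.39 CPM (line 2). The groups do not overlap: the lowest knockout or rescue library was above the highest control by far more than any control differed from another, on 64 to 93 reads per control library and 141 to 287 reads in the others. The mean was 3.43 times control in KO and 2.9 times control in rescue. The log2 fold change was 1.78 in KO (SE 0.19, edgeR adjusted p = 0.000713), where 6.28% of all genes tested were called. In rescue it was 1.53 (SE 0.19, edgeR adjusted p = 0.00144), where 5.47% were called. Both comparisons use the same 4 controls and are not independent. The KO call held in 22 of 22 alternative analyses, and the rescue call in 21 of 22, being lost with only the 8 libraries whose labels agree (adjusted p = 0.0562).

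TGFB2 encodes the ligand that depends most on betaglycan. It was at 3.82, 3.14, 4.39 and 3.65 CPM in controls, on 206 to 260 reads. In the line 1 knockouts it was at 1.23 and 1.01 CPM, on 77 and 43 reads, and in the line 2 knockouts at 0.15 and 0.08 CPM, on 8 and 6 reads. Every knockout library was below every control, and the lines were far apart from each other. The rescues held 0.84 and 0.23 CPM (line 1) and 0.11 and 0.06 CPM (line 2), on 43, 8, 6 and 4 reads. With both lines in 1 group, that spread left KO at a log2 fold change of -2.61 (SE 0.87, edgeR adjusted p = 0.0999), which was not called. In rescue it was -3.60 (SE 0.92, edgeR adjusted p = 0.0422). The rescue call held in 11 of 22 alternatives and was lost on leaving out any 1 control, KO 1_2, KO_RES 1_2, KO_RES 2_1 or KO_RES 2_2, with either pair of controls, and with the 8 agreeing libraries (highest adjusted p = 0.141). In KO it was called with DESeq2 and when both lines were averaged after a fit by line.

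TGFB1 encodes the ligand most studied in fibrosis and carcinoma. It was at 20.6, 22.1, 19.0 and 28.1 CPM in controls, at 17.9, 18.2, 14.9 and 20.9 CPM in KO 1_1, 1_2, 2_1 and 2_2, and at 13.3, 12.8, 16.2 and 21.2 CPM in the rescue libraries in the same order. The groups overlap. The log2 fold change was -0.32 in KO (95% interval -0.68 to 0.04, edgeR adjusted p = 0.34) and -0.50 in rescue (-0.86 to -0.14, edgeR adjusted p = 0.145).

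Within each library the balance of the 2 minor ligands turned over. The ratio of TGFB3 to TGFB2, both per kb, was between 0.274 and 0.473 in the 4 controls, between 3.8 and 50.1 in KO and between 4.07 and 60.0 in rescue. TGFB1 made up 87.4% ± 2.33 of the summed ligand level in controls, 84.6% ± 2.8 in KO and 85.4% ± 3.6 in rescue (SD, n = 4). TGFB2 made up 9.41% ± 2.27, 1.8% ± 1.68 and 1.19% ± 1.44, and TGFB3 3.22% ± 0.258, 13.6% ± 2.25 and 13.4% ± 3.03, in the same order. The 3 ligands together were at 7.92 ± 1.24 CPM per kb in controls, 6.54 ± 0.732 in KO and 5.7 ± 1.12 in rescue, with overlapping ranges. These shares are of mRNA and are descriptions with no test of their own.

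**Figure D2:**
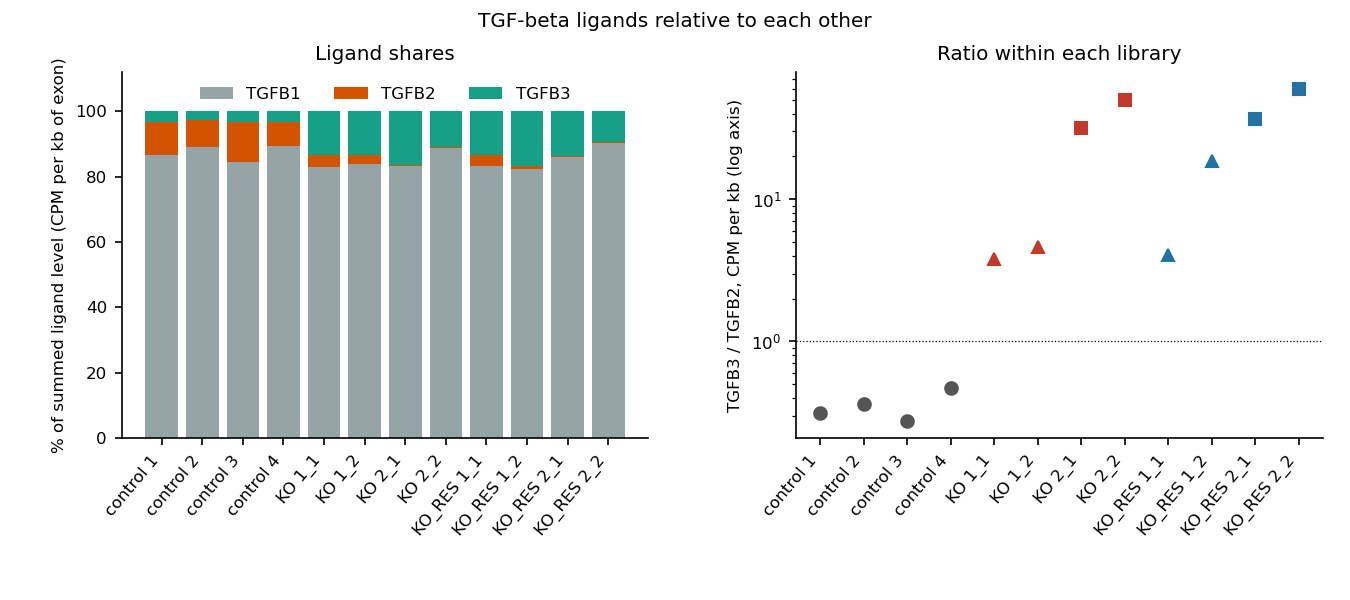
Left, the share of TGFB1, TGFB2 and TGFB3 in the summed ligand level (% of CPM per kb of exon) in each of the 12 libraries; right, the ratio of TGFB3 to TGFB2 per library on a log axis, with a dotted line at 1. All 4 controls lie below 1, at 0.274 to 0.473, and all 8 knockout and rescue libraries above it, at 3.8 to 60.0.

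Of the latent binding proteins, LTBP1 and LTBP3 were below every control in all knockout and rescue libraries. LTBP1 holds the latent complex in the matrix. It was at 137, 144, 147 and 161 CPM in controls and at 73.5, 65.6, 57.6 and 65.0 CPM in KO 1_1, 1_2, 2_1 and 2_2. The rescues held 75.7, 64.5, 63.1 and 64.0 CPM in the same order. The mean was 147 ± 10.2 CPM in controls, 65.4 ± 6.5 in KO and 66.8 ± 5.92 in rescue (SD, n = 4), that is 0.444 and 0.453 of control. The log2 fold changes were -1.17 and -1.14, between -1.07 and -1.27 for the 4 combinations of line and group, and are the values on which the family was chosen. LTBP1 made up 60.3% ± 2.7 of the summed LTBP level per kb in controls and 50.5% ± 3.8 in KO, and that sum was 33.5 ± 3.4 CPM per kb in controls, 17.7 ± 2.16 in KO and 18.8 ± 2.59 in rescue.

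LTBP3 carries latent TGF-beta in bone and other tissues. It was at 47.6, 53.5, 44.3 and 66.9 CPM in controls. KO 1_1, 1_2, 2_1 and 2_2 were at 29.6, 41.9, 15.6 and 22.4 CPM, and the rescue libraries at 30.9, 28.8, 22.8 and 34.5 CPM. No knockout or rescue library reached the lowest control. The log2 fold change was -0.96 in KO (SE 0.26, edgeR adjusted p = 0.0522) and -0.86 in rescue (SE 0.26, edgeR adjusted p = 0.0803), just short of a call. Without KO 1_2 both were called, as they were with DESeq2 and with the mean of both lines.

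LTBP2, an LTBP that lies on fibrillin fibres and is not known to bind latent TGF-beta, depended on the controls used. Controls 1 and 2 held 13.8 and 16.7 CPM and controls 3 and 4 held 4.37 and 7.36 CPM. KO libraries lay between 3.03 and 5.81 CPM and rescue libraries between 2.73 and 9.15 CPM. Only the first control pair stood above all of these. The log2 fold change in KO was -1.16 (edgeR adjusted p = 0.16) against all controls, -1.71 against controls 1 and 2, where it was called, and -0.31 against controls 3 and 4 (0.818). It was also called with groups by the genotype label (-1.63, edgeR adjusted p = 0.0208). Hepatocyte markers were likewise higher in controls 1 and 2, and their part in this result was not tested. LTBP4, which binds latent TGF-beta weakly and serves elastic fibre assembly, was at 46.0 to 72.0 CPM in controls, 40.0 to 52.1 in KO and 38.4 to 75.4 in rescue. Its log2 fold change was -0.31 in KO (95% interval -0.72 to 0.1) and -0.18 in rescue (-0.59 to 0.24), not called.

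No receptor was called in KO or in rescue. TGFBR1, the kinase that phosphorylates SMAD2 and SMAD3, was at 92.1, 86.8, 94.5 and 95.6 CPM in controls, at 70.6, 69.9, 79.9 and 85.7 CPM in KO 1_1, 1_2, 2_1 and 2_2, and at 70.3, 72.9, 81.7 and 78.7 CPM in rescue. All 8 knockout and rescue libraries were below all 4 controls, by a small margin in line 2. The log2 fold change was -0.27 in KO (SE 0.09, edgeR adjusted p = 0.113) and -0.28 in rescue (SE 0.09, edgeR adjusted p = 0.106), not called. It was called lower with DESeq2 and with the mean of both lines.

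TGFBR2, the ligand-binding kinase, divided the controls rather than the groups. Controls 1 and 2 held 157 and 146 CPM, while controls 3 and 4 held 327 and 314 CPM. KO libraries held 294 and 268 CPM (line 1) and 191 and 175 CPM (line 2), and rescue libraries 255, 234, 197 and 155 CPM in the same order. All 8 lay between the lowest and the highest control. The log2 fold change in KO was -0.02 against all controls (edgeR adjusted p = 0.975), 0.59 against controls 1 and 2 and -0.47 against controls 3 and 4. TGFBR3 showed the same split of the controls, at 60.4 and 59.9 CPM against 89.1 and 92.6 CPM, with KO between 73.4 and 85.8 CPM and rescue between 64.7 and 89.8 CPM. Its log2 fold change was 0.05 in KO (edgeR adjusted p = 0.892) and -0.22 against controls 3 and 4. For both genes the control pairs differed by more than the groups, and no direction against control is given.

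Of the 9 genes other than LTBP1, 4 (LTBP3, TGFB2, TGFB3 and TGFBR1) had no overlap between KO and control, where 16.8% of all genes tested had none. The same 4 had none between rescue and control, where 13.6% had none. Of these 9 genes, 1 was called higher and 0 lower in KO, where 6.28% of all genes tested were called. In rescue 1 was called higher and 1 lower, where 5.47% were called. The median log2 fold change of the 9 genes was -0.31 in KO and -0.28 in rescue, beside 0.01 and 0.02 over all genes tested.

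Rescue was not told apart from KO for any of the 10 genes, and the intervals give an approximate range for the differences. In rescue against KO, 0 of 10 genes were called by edgeR, 0 had an unadjusted p under 0.05, and DESeq2 called 0. Over all genes edgeR called 0.0%, or 0 of 19200 (473 at an unadjusted p under 0.05), DESeq2 called 6, and a fit that blocked on each pair of the same line and number called 8, none of them in the family. HKDC1 itself was at 8.9 times the KO mean, and it too was not called by edgeR in the 3-group fit (log2 difference 3.15, edgeR adjusted p = 0.156). An absent call in that fit thus does not show that a gene was unchanged. HKDC1 was called with DESeq2 and with the fits that blocked on line. It was also called within line 1 (edgeR adjusted p = 0.0045) and within line 2 (0.0159). For LTBP1 the log2 difference of rescue minus KO was 0.03 (95% interval -0.17 to 0.23, edgeR adjusted p = 1), beside a control mean that was 2.25 times the KO mean. For TGFB3 it was -0.24 (-0.60 to 0.12), with rescue below the knockout of the same line and number in 4 of 4 pairs. For TGFB2 it was -0.99 (-2.70 to 0.72), again lower in 4 of 4 pairs. The pairing by number is not established. Across numbers in line 2, KO_RES 2_1 lay above KO 2_2 for TGFB3 (3.93 and 3.90 CPM) and TGFB2 (0.11 and 0.08 CPM, on 6 reads each). The log2 differences of the other 7 genes lay between -0.18 for TGFB1 and 0.15 for LTBP2. Not one of the 10 was free of overlap between rescue and KO, against 1.67% of all genes.

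Within a line the rescue differences were also not called. Line 1 called 0.195% of all genes and line 2 called 0.00486%, with 0 of 10 members in either. LTBP3 went furthest apart, with a log2 difference of rescue minus KO of -0.26 in line 1 (95% interval -0.77 to 0.26) and 0.59 in line 2 (0.07 to 1.11, edgeR adjusted p = 1). The line 2 rescues held 22.8 and 34.5 CPM of LTBP3, the higher in KO_RES 2_2. In that library 19.53% of reads lay in no gene feature, against 11.14 to 14.19% in the others, and a part of this was not tested. The difference between the lines in the rescue effect was 0.85 for LTBP3 (edgeR adjusted p = 1). That interaction called 0.0% of all genes by edgeR (598 at an unadjusted p under 0.05) and 33 genes by DESeq2, with 0 of 10 members by edgeR, LTBP3 alone having an unadjusted p under 0.05.

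**Figure D3:**
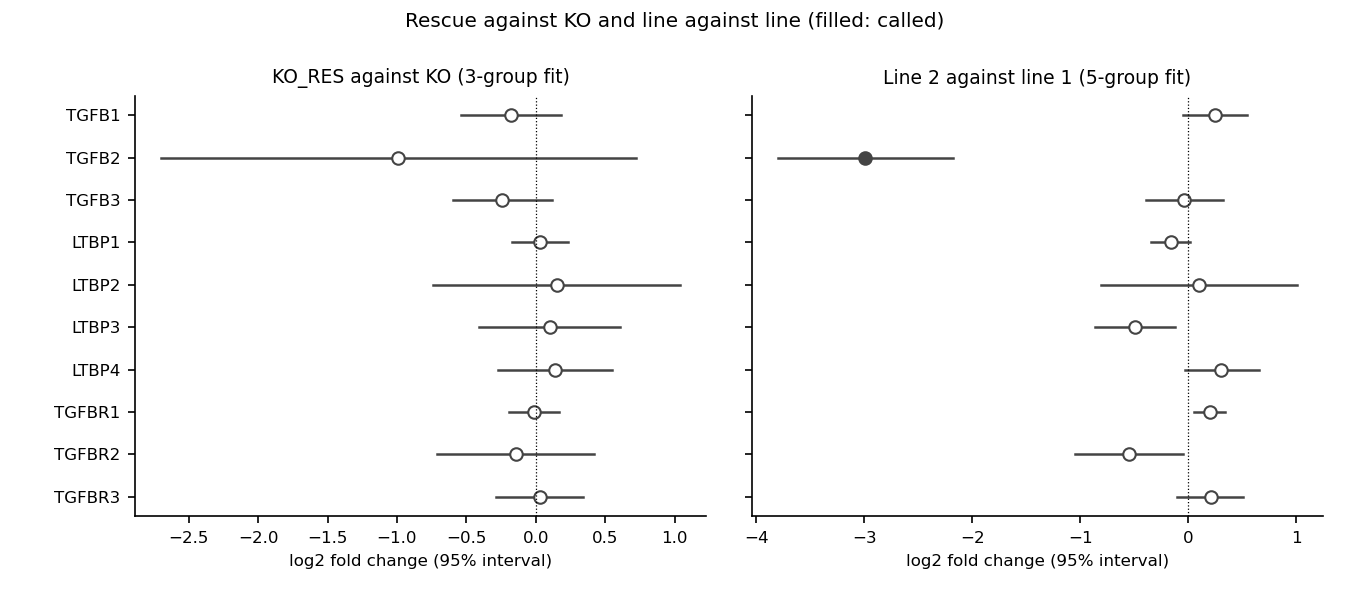
Log2 fold changes (points) with 95% intervals (bars) of the 10 genes for rescue against KO on the left (3-group fit) and line 2 against line 1 on the right (5-group fit), filled where called; controls entered the filter, the scaling and the estimate of spread of both fits. On the left all 10 intervals include 0; on the right TGFB2 lies at -2.99 and is the only one called.

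Between the lines 1 member was called by edgeR in the main analysis. Line 2 against line 1, over knockout and rescue together, gave TGFB2 a log2 difference of -2.99 (SE 0.41, edgeR adjusted p = 0.000469), where 26.9% of all genes tested were called. The 4 libraries of line 1 held 0.23 to 1.23 CPM of TGFB2 and the 4 of line 2 held 0.06 to 0.15 CPM, without overlap, and the call held in 16 of 16 alternatives. HKDC1 differed in the same direction, with a log2 difference of -1.2. The rescues of line 2 held HKDC1 at 507 and 626 CPM and TGFB2 at 0.11 and 0.06 CPM, on 6 and 4 reads. The knockouts of line 1 held HKDC1 at 153 and 147 CPM and TGFB2 at 1.23 and 1.01 CPM. These libraries differ in both line and group, and a part of HKDC1 in the TGFB2 difference was not tested. TGFBR1 at 0.20 (edgeR adjusted p = 0.0647), LTBP3 at -0.49 (0.0796) and TGFBR2 at -0.55 (0.14) were not called, nor were LTBP2, TGFBR3, TGFB1 and LTBP4, at 0.10 to 0.31. Of 16 alternatives, LTBP3 was called in 4, TGFBR2 in 2 and TGFBR1 in 1. DESeq2 called LTBP3 and TGFBR1. For TGFB3 the difference was -0.04 (95% interval -0.39 to 0.32), and for LTBP1 -0.16 (-0.34 to 0.02).

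Against the 4 controls, each line gave the same direction for TGFB2 and TGFB3. KO line 1 called 18.1% of all genes and KO line 2 called 10%, while the rescue of line 1 called 18.2% and that of line 2 called 9.62%. TGFB3 had log2 fold changes of 1.82 and 1.73 in the knockouts of lines 1 and 2 and of 1.53 and 1.54 in their rescues, the highest edgeR adjusted p being 0.00206. TGFB2 had -1.74 and -5.04 in the knockouts (edgeR adjusted p = 0.0204 and 0.000499) and -2.77 and -5.45 in the rescues (0.00294 and 0.000413). Those 8 calls held against controls 1 and 2 alone and against controls 3 and 4 alone.

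LTBP3 fell in the line 2 knockout, by 1.48 on the log2 scale (edgeR adjusted p = 0.0045), and in both rescues, by 0.83 in line 1 (0.0351) and 0.89 in line 2 (0.0399). In the line 1 knockout it was at -0.57 (0.118). The 2 rescue calls were lost against controls 3 and 4 alone (edgeR adjusted p = 0.0554 and 0.0536). TGFBR1 fell in line 1, by 0.40 in the knockout (0.0125) and 0.37 in the rescue (0.018), the latter lost against controls 1 and 2 alone (0.0502). In line 2 TGFBR1 was at -0.16 (0.313) and -0.21 (0.179). TGFB1 fell in the rescue of line 1, by 0.78 (edgeR adjusted p = 0.0202). TGFBR2 changed its sign with the controls: the line 1 knockout was at 0.87 against controls 1 and 2 (0.00262) and at -0.18 against controls 3 and 4, and the line 2 knockout at 0.25 and at -0.81 (0.0108).

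**Figure D4:**
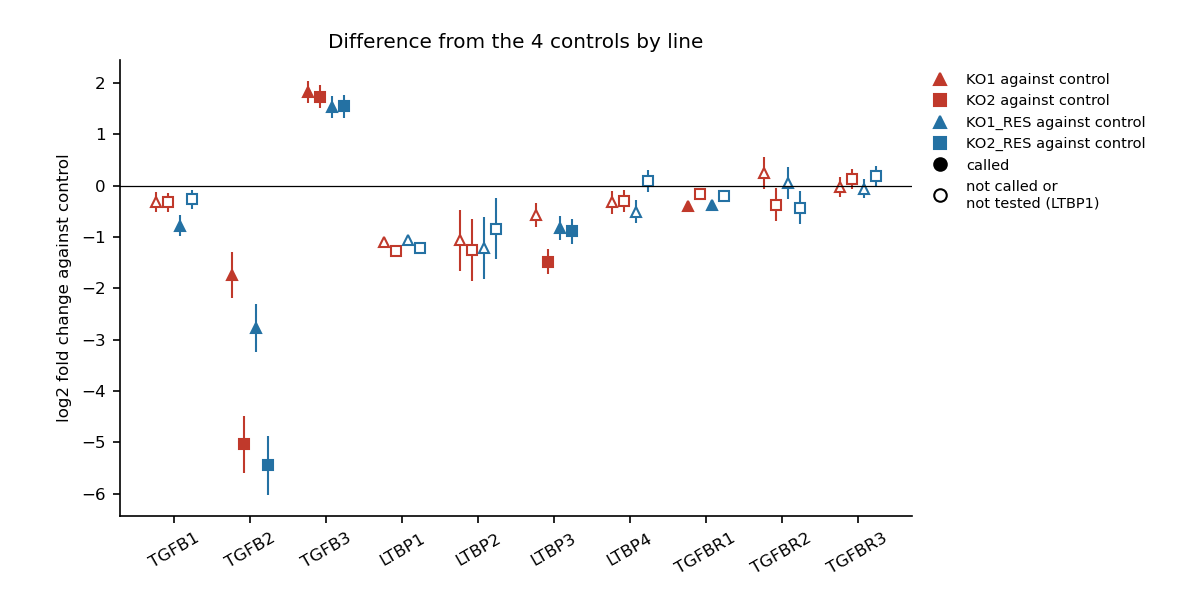
Log2 fold change against the 4 controls (vertical axis) of each gene in the knockout and rescue of line 1 (triangles) and line 2 (squares), with bars of 1 SE; filled symbols were called, open ones were not called or, for LTBP1, not tested and drawn without a bar. TGFB3 lies between 1.53 and 1.82 in all 4 combinations, and TGFB2 between -1.74 and -5.45, lower in line 2.

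Among genes that store or activate latent TGF-beta, 17 of 22 listed were tested. In KO 0 were called higher and 2 lower, where 6.28% of all genes tested were called. The median log2 fold change of this list was -0.56 in KO and -0.64 in rescue, beside 0.01 and 0.02 over all genes. ITGB5, a partner of integrin alpha-v that can bind latent TGF-beta, fell from 445 ± 62.6 CPM in controls to 280 ± 14.1 in KO and 285 ± 26.3 in rescue (SD, n = 4). Its log2 fold change was -0.67 in KO (edgeR adjusted p = 0.0071) and -0.64 in rescue (0.00974), called against each control pair. BMP1, a protease that can cut LTBP1, fell from 26.1 ± 2.72 CPM to 12.5 ± 3.45 in KO and 12 ± 4.79 in rescue. Its log2 fold change was -1.06 in KO (edgeR adjusted p = 0.0437), a call lost against either control pair alone (0.0744 and 0.215). By line, both knockouts were called lower against each control pair, the highest edgeR adjusted p being 0.0217. ITGAV, the alpha-v chain itself, was called in rescue (-0.63, edgeR adjusted p = 0.0252), a call lost against controls 3 and 4 (0.227). Of the activating beta chains, ITGB6 and ITGB8 were at most at 0.691 and 1.07 CPM in any library.

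Of the SMADs and their regulators, all 14 listed were tested, with 0 called higher and 1 lower in KO and in rescue. That is near the share of all genes tested that were called, 6.28% in KO and 5.47% in rescue. The called gene was WWP1, a ubiquitin ligase of SMAD pathway proteins, at 103 ± 8.69 CPM in controls, 66.7 ± 9.34 in KO and 69.4 ± 10.8 in rescue (log2 fold change in KO -0.62, edgeR adjusted p = 0.0207). That call was lost against controls 3 and 4 (0.141). SMAD3 was at 86.4 to 136 CPM in controls and 69.0 to 86.2 CPM in KO, without a call (log2 fold change -0.44, edgeR adjusted p = 0.192). Of 10 accessory receptor genes, 9 were tested. By edgeR or DESeq2, 0 were called in KO or in rescue (1 and 0 at an unadjusted p under 0.05). With 9 genes, 0 calls are near edgeR's share over all genes. Of 8 ligand traps only 2 passed the filter on low counts. FST, or follistatin, which traps activin, was one of them and fell from 511 ± 48.2 CPM to 152 ± 54.3 in KO and 152 ± 62.2 in rescue, with a log2 fold change of -1.75 in each (edgeR adjusted p = 0.00838 and 0.00937).

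Common TGF-beta target genes did not move together. Of 22 listed, 1 of them LTBP2, 19 were tested. In KO 0 were called by edgeR (5 at an unadjusted p under 0.05, 2 lower by DESeq2), where 6.28% of all genes were called. The median log2 fold change of the list in KO was 0.05, beside 0.01 over all genes. In rescue, where 5.47% of all genes were called, 1 was called, VIM, the mesenchymal filament protein vimentin. VIM was at 274 ± 40.7 CPM in controls, 138 ± 67.2 in KO and 69.7 ± 19.1 in rescue, with a log2 fold change in rescue of -1.98 (edgeR adjusted p = 0.00492). CCN2, a matrix protein and a classical target, was at 81.1 to 119 CPM in controls and 81.9 to 123 CPM in KO (log2 fold change 0.05, edgeR adjusted p = 0.877). TGFBI, a matrix protein named for its induction, split the controls (1432 and 1609 CPM for 1 and 2, 252 and 295 CPM for 3 and 4), with KO at 165 to 414 CPM. CCN2, TGFBI, SMAD3, ITGB6 and ITGB8 were singled out after their values were seen.

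Between the lines, where 26.9% of all genes were called, 4 of the 20 target genes tested were higher in line 2 and 5 lower, among them TAGLN, an actin-binding protein of contractile cells, at a log2 difference of -2.93 (edgeR adjusted p = 0.000609) and CDKN1A, a cell cycle inhibitor, at 1.01 (0.0121). Of the 19 storage and activation genes 3 were higher and 2 lower, a share near that of all genes: BMP1 (0.86), FBN1, the fibrillin to which LTBPs attach (1.58), and THBS1, an activator of latent TGF-beta (1.95), against FURIN, the protease that cleaves the TGF-beta precursor (-1.07), and TGM2, the transglutaminase that crosslinks LTBP1 to the matrix (-1.59). PMEPA1, a TGF-beta target that restrains SMAD signalling, was at 1.17 to 1.72 CPM in controls and 2.58 to 5.59 CPM in KO. It was at 1.03 and 0.368 CPM in the rescue of line 1 and at 4.21 and 5.25 CPM in that of line 2. Against control it was called higher in the knockout of line 1 (1.46, edgeR adjusted p = 0.0216) and of line 2 (1.74, 0.015). Both calls were lost against controls 3 and 4 alone (0.074 and 0.0543).

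The genes whose level followed LTBP1 most closely over the 12 libraries were FKBP9 (Pearson r of log2 CPM 0.99), DSC2 (0.981), TMEM168 (0.977), KDELR1 (0.976) and LIMCH1 (0.974), out of 12508 genes with a symbol and a mean of at least 2 CPM. These correlations rest on the step between controls and the other 8 libraries, so they restate a difference from control. FKBP9 stood at 212 ± 7.62 CPM in controls and 140 ± 9.5 in KO, and KDELR1 at 200 ± 7.16 and 127 ± 16.3 (SD, n = 4). DSC2 went from 46.1 ± 25.2 to 0.0751 ± 0.0517 CPM, the latter about the floor of 3 counts (0.0408 to 0.0849 CPM by library), and LIMCH1 from 41.1 ± 2.5 to 1.57 ± 0.786 CPM. Within the family LTBP3 (0.834) and TGFBR1 (0.753) followed LTBP1, and TGFB3 ran opposite to it (-0.95). TGFB2 had a mean under 2 CPM and was not among the genes compared. Over the 8 knockout and rescue libraries alone the closest were PMS2P3 (0.96), C2orf68 (0.951), MTHFS (0.951), CTC-338M12.4 (0.921) and CACNA1H (0.917), none of them among the first 5. PMS2P3 has near-identical relatives, so its counts are uncertain. There TGFBR3 was at -0.82, TGFBR2 at 0.639, TGFBR1 at -0.629 and LTBP3 at 0.554, while LTBP1 itself spanned only 57.6 to 75.7 CPM. The other members compared lay between -0.34 for TGFB3 and 0.033 for LTBP2.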

How the data were processed

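The deposited files held read counts per gene for each library, which the authors made with STAR 2.6.0b on GRCh37 per the submitters' processing notes, from a stranded mRNA library kit per the labels' protocols. Trimming and filters are not given in the sources used here. Of the 3 count columns, the one for the strand in column 4 was used, since the other strand held 4.52 to 4.81% of both strands' total. Lines of unassigned reads were left out. Symbols came from a list of gene names (39538 genes) and, by identifier, from GENCODE release 29 (12800 genes), and genes without one held 4.84% of counts. Libraries of a group differed far beyond sampling noise, so all 12 were kept as separate libraries.

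The tests were edgeR's quasi-likelihood tests (version 4.0.16, R 4.3.3) after filterByExpr and TMM, and a gene was called where its Benjamini-Hochberg adjusted p over all genes tested was under 0.05. One model held 3 groups (19200 genes) and another 5 groups, the control and the knockout and rescue of each line (20559 genes). Intervals are the estimate ± 1.96 SE and are approximate, being somewhat narrower than the F tests that gave the p-values allow. For TGFBR2 between the lines the interval of -1.05 to -0.05 leaves out 0 at an edgeR unadjusted p of 0.0557. The floor of 3 counts covers counting error only, since reads were not counted by molecular identifiers and can be copies of 1 molecule. The tests were tested on simulated data with less spread between libraries than here and no split of the controls. That run does not show how they perform on the present data. Knockout and rescue libraries of the same line and number deviated together (r = 0.69, 0.73, 0.76 and 0.74 for the 4 pairs), the lines being given by the labels. Those of the same line but different number did so as well (r = 0.4 to 0.61), so the pairing by number is not established. A fit that blocked on line and number was an alternative. The other alternatives were DESeq2 1.42.0, RLE scaling, no filter, models of only the groups compared, unstranded counts, the mean of both lines, groups by the genotype label, the 8 libraries with agreeing labels, each control pair, line or number as a block, and each library left out.

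The members and the gene lists were chosen with earlier results of these data known. Named genes were the 10 members, HKDC1, up to 4 called members of each of 5 pathway lists in each direction with the smallest adjusted p, and the 5 genes most like LTBP1 over 12 and over 8 libraries. Promoter windows came from RefSeq on GRCh38.p14 and matched 10 of 10 members. Coordinates of the counts are not used here. One gene of the target list is not reported here by name.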

Additional observations from a re-analysis of the deposited data

Results flagged for a closer look

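LTBP1 was at 75.7 CPM in KO_RES 1_1, and the other 3 rescue libraries lay between 63.1 and 64.5 CPM, so that the gap made up 0.89 of the group's range. TGFB3 was at 1.65 CPM in control 4, against 1.08 to 1.15 CPM in the other controls, and at 3.90 CPM in KO 2_2, against 4.43 to 4.46 CPM in the other knockouts, with gaps of 0.881 and 0.945 of the range. Each gap is above the 95% critical value of Dixon's test for 4 libraries. Chance flags about 1 in 20 groups, and 33 combinations of gene and group were checked. TGFB2 differed between the lines by -2.99 (line 2 minus line 1, log2), and HKDC1 by -1.2, both called by edgeR in the test of the difference itself.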

How the results depend on the processing

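Of the members, TGFB3 in KO kept its call in 22 of 22 alternatives and TGFB2 between the lines in 16 of 16. Counts of called genes moved more. In KO against control, 1206 calls became 3312 with the mean of both lines, 2346 with DESeq2, 1883 with groups by the genotype label, 337 with controls 3 and 4 and 72 with the 8 agreeing libraries. In rescue against control, 1050 became 3171, 2122, 1874, 384 and 64 in that order, and 533 with only the groups compared. Rescue against KO went from 0 to 8 with the replicate block of line and number, 6 with DESeq2, 3 with line as a block, 2 with the mean of both lines and 1 without the filter. Against controls 1 and 2, KO line 2 had 3861 calls and its rescue 3856. With DESeq2 and without the filter, rescue within line 1 had 217 and 548, within line 2 had 2 and 41, and the interaction 33 and 192. With number as a replicate block, a pairing the labels do not give (r of the number differences 0.22 to 0.49), the lines differed in 8797 genes, LTBP3 and TGFBR2 among them, and LTBP2 turned to -0.03. The causes were not tested. Leaving out 1 library gave 509 to 1506 calls in KO, 471 to 1138 in rescue, 1 to 40 for rescue in line 1, and 0 to 1 for rescue in line 2 and for the interaction.

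Sign changes on the log2 scale concerned values that were not called in the main analysis. TGFBR2 turned to 0.59 in KO, 0.46 in rescue, 0.25 in KO line 2 and 0.19 in its rescue against controls 1 and 2, to -0.18 and -0.38 in line 1 and its rescue against controls 3 and 4, and to 0.04 in KO with the 8 agreeing libraries. TGFBR3 turned to -0.22 in KO, -0.19 in rescue, -0.15 in KO line 2 and -0.08 in its rescue against controls 3 and 4, and to 0.27 and 0.26 in line 1 and its rescue against controls 1 and 2. LTBP4 turned to 0.01 in rescue with the 8 libraries and to -0.07 in the rescue of line 2 against controls 3 and 4. For rescue against KO, groups by the genotype label and the 8 libraries gave -0.06 and -0.02 for LTBP1, 0.23 and 0.06 for TGFB1, and 0.02 and 0.02 for TGFBR1. HKDC1 in KO turned to 1.69 with groups by the genotype label. Leaving out 1 library gave, for TGFBR2, -0.21 to 0.17 in KO and -0.35 to 0.03 in rescue, and for TGFBR3 -0.06 to 0.16 and -0.03 to 0.18. For rescue against KO it gave -0.04 to 0.09 for LTBP1, -0.26 to 0.36 for LTBP2, -0.10 to 0.38 for LTBP3, -0.12 to 0.24 for LTBP4, -0.05 to 0.06 for TGFBR1 and -0.03 to 0.11 for TGFBR3. Between the lines it gave -0.45 to 0.41 for LTBP2 and -0.11 to 0.04 for TGFB3. Depth limits TGFB2 in line 2, where 4 to 8 reads stood behind each value.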
